A study of Mus musculus with 2 samples.

Results

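Of 43296 EP300 regions on chromosomes 1 to 19 of newborn mouse lung, 893 (2.06%, 95% Wilson interval 1.93 to 2.20) had their summit in an exon of a protein-coding gene and over 1 kb from every protein-coding start site. Within the authors' optimal set of reproducible peaks they were chosen by position alone, from the summit of each region and the exons of GENCODE basic transcripts. The set itself had been selected by the authors for reproducibility between the libraries. Comparisons of signal and of recovery in both libraries are therefore made among regions already selected in that way. The summit lay in coding sequence (CDS) in 272 of them, in a 5′ untranslated region (5′ UTR) in 19 and in a 3′ untranslated region (3′ UTR) in 602. In all, 37570 regions lay over 1 kb from a start, and the others of these were in introns (18155) or between genes (18522). Only basic protein-coding transcripts defined genes here, so noncoding genes outside them count as sequence between genes. Just inside the distance limit, the 9 exonic regions from 1 to 1.1 kb had a median signal of 34.8, and just outside it the 8 from 0.9 to 1 kb had 58.5.

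EP300 is a lysine acetyltransferase and coactivator. It does not read DNA sequence itself but is brought to enhancers and promoters by transcription factors, where it acetylates histones. Its sites are used to map enhancers, which mostly lie in introns and between genes. An exon can also carry an enhancer, and its bases then have to serve both the message and the factors that bind there. In the lung, the glucocorticoid receptor, AP-1 (dimers of FOS and JUN proteins), TEAD, FOX and ETS factors are among those that work with such coactivators.

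The data were 2 chromatin immunoprecipitation libraries (ChIP-seq) made with an antibody to EP300 from whole lung of B6NCrl mice at postnatal day 0, forming 1 group with no other genotype or treatment named. They are labelled biological replicates 1 and 2, yet 1 donor and 1 biosample record stand for both, so differences between them may be only technical. The sex was not collected, and a possible control experiment named in the labels was not analysed here. Peak lists hold no read counts, so the depth behind each region is unknown. Each library's own list and the pooled list held 300000 peaks, and the optimal set held 43988 on all sequences. The signal value of a region is the authors' own, with no scaling stated, and a region's main signal is that of the pooled list. In whole tissue, few cells with a strongly bound site and many cells with a weakly bound one cannot be told apart.

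Some exonic regions carried, close to the summit, a sequence that a known factor reads. The glucocorticoid response element was searched as its arms GNACA and TGTNC set 3 bases apart, where N is any base. The 3 strongest coding and the 3 strongest 3′ UTR regions that held it are given as 30 bases each (mm10, 5′ to 3′ on the strand of the gene), with the match in capitals. The coding stretches were chr15:36080890-36080919 (minus strand, exon 14 of 28 of Rgs22, a regulator of G protein signalling), chr11:83397814-83397843 (plus, exon 21 of 22 of Ap2b1, a subunit of the clathrin adaptor AP-2) and chr2:135954919-135954948 (plus, exon 16 of 37 of Plcb4, a phospholipase C). The 3′ UTR stretches were chr6:54503024-54503053 (plus, the last exon of Wipf3, a WASP-interacting protein), chr7:121768001-121768030 (plus, the last exon of Scnn1g, the gamma subunit of the epithelial sodium channel) and chr3:90280013-90280042 (plus, the last exon of Dennd4b, which holds a DENN domain).
Rgs22: gctgtggaaGCACAGTGTGTACttttggtt
Ap2b1: gaagggcaGGACATGCTGTACcagtccctg
Plcb4: tatcaacaGTACAAGATGTCCaagtattgt
Wipf3: acactgaaGGACACCATGTTCtacactgct
Scnn1g: tgacactgGGACAAGGTGTCCtctgtgtcc
Dennd4b: ggaattggGAACAGGATGTTCagcctaggc

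For AP-1 the pattern TGANTCA was searched, with any base in the middle, and matches were found in all 3 kinds of exon. Throughout, an AP-1 site means only a match to this broad pattern, whichever base stood in the middle. Matches were not divided by the middle base, which is T in the printed Lhpp stretch. Among 3′ UTR regions with a match, Ppp3r2, with a pooled signal of 100.27, is not printed, although Lhpp had 100.04. For each kind of exon 2 examples are shown with the match in capitals. They were chr5:150466376-150466405 (plus strand, exon 52 of 61 of Fry, a microtubule-binding protein), chr14:20985661-20985690 (plus, exon 5 of 21 of Vcl, which encodes vinculin), chr11:77786168-77786197 (minus, the single exon of the predicted gene Gm10277), chr1:74297483-74297512 (minus, the first exon of Tmbim1, a transmembrane BAX inhibitor motif protein), chr13:12475319-12475348 (minus, the last exon of Edaradd, the adaptor of the EDAR receptor) and chr7:132670552-132670581 (plus, the last exon of Lhpp, a histidine phosphatase).
Fry (CDS): gaggattccgaTGAGTCAtccgaggaggac
Vcl (CDS): acagcaggagtTGACTCAccaggaacaccg
Gm10277 (5′ UTR): tagaggaggaagTGAGTCAgctccttacag
Tmbim1 (5′ UTR): gggggaggcctgTGAGTCAgcagctgagcc
Edaradd (3′ UTR): acccacatggggTGAGTCAtgactagctcc
Lhpp (3′ UTR): ttgcaggccctTGATTCAggaaacaaaaga

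Coding exons held fewer EP300 regions for their length than any other class of sequence, and 3′ UTRs held about as many as introns. The annotation gave 28.0 Mb of coding sequence over 1 kb from a start, and EP300 regions there stood at 9.71 per Mb (95% Poisson interval 8.59 to 10.9). The 3′ UTRs, of nearly the same total length, held 20.1 per Mb (18.5 to 21.7), against 21.3 per Mb in introns and 13.0 per Mb between genes. Relative to introns, the density was 0.457 in coding sequence and 0.943 in 3′ UTRs. Each library taken alone, with as many of its strongest peaks as the optimal set, gave nearly the same counts, 273 and 271 in coding sequence and 602 and 600 in 3′ UTRs. These intervals cover counting error only, and regions that overlap are not independent: 182 of the 893 overlapped another region of the optimal set.

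**Figure D1:**
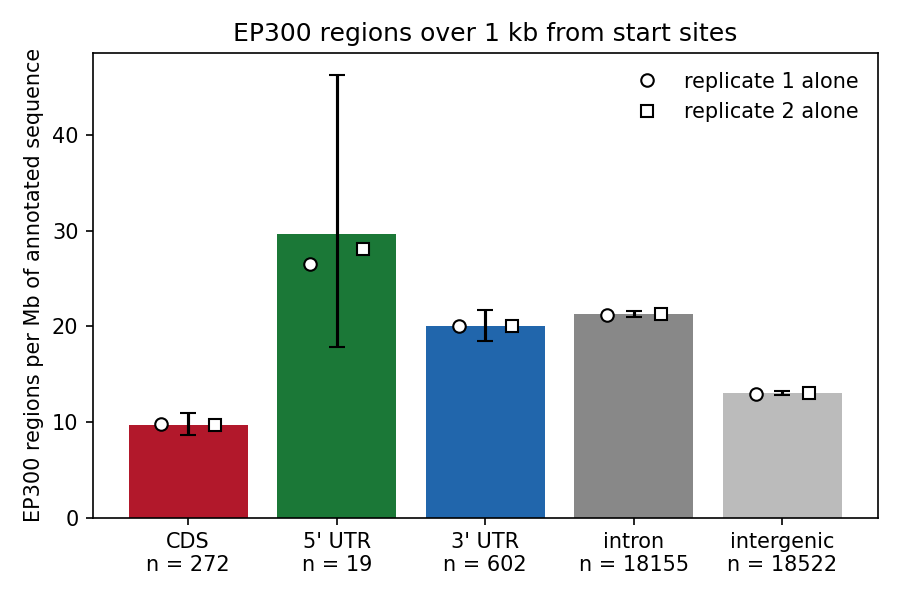
EP300 regions over 1 kb from a start site per Mb of annotated sequence, by class of sequence. Bars are the optimal set with its 95% Poisson interval, and open symbols are each library alone. Coding sequence stands lowest at 9.71 per Mb, and the 5′ UTR bar rests on 19 regions.

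Introns close to coding exons were less dense than introns as a whole. Intron sequence within 500 bp of coding sequence held 1842 regions at 15.7 per Mb (14.9 to 16.4). Coding sequence stood at 0.620 of that value, so a lower density remained beside its own surroundings.

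Coding sequence and 3′ UTRs also held a smaller share of the optimal regions than of the peaks that were called but did not enter the optimal set. Of the 230545 pooled peaks over 1 kb from a start that overlapped no optimal region, 1.07% lay in coding sequence, against 0.724% of the optimal regions. The ratio of the shares was 0.674 (two-sided Fisher's exact test, adjusted p = 1.56e-10 over 4 tests). In 3′ UTRs the shares were 1.90% and 1.60%, a ratio of 0.845 (Fisher's exact test, adjusted p = 9.97e-05), and over all exons the ratio was 0.789 (Fisher's exact test, adjusted p = 1.39e-11). These other peaks were differently spread, at 88.4 per Mb in coding sequence, 146 in 3′ UTRs, 127 in introns and 80.7 between genes, where they were sparsest. The coding ratio ranged from 0.578 to 0.751 over the alternatives tried.

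The 3′ UTR summits mostly lay in 1 long exon at the end of the gene. The last exon held 96.7% of them, and the median length of the exon was 2770 bp, near the 2882 bp found at 3′ UTR bases in general. The entire called region was inside annotated exon sequence, of the host exon or any other, in 81.9% of 3′ UTR regions. Called regions were 424 bp wide in 97.5% of all exonic regions. With each 3′ UTR cut into 3 equal parts, 175 summits were in the part next to the coding sequence, 224 in the middle and 203 in the part at the transcript end. The transcript end was a median of 984 bp away. The nearest protein-coding start belonged to the host gene for 51.5% of 3′ UTR regions, so that many of them lay nearer to the start of another gene. Wipf3 gives an example, whose 3′ UTR region was 6.34 kb from the start of Scrn1 and 50.1 kb from its own. How often the host's start is nearest was not measured for 3′ UTR bases in general.

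The density of EP300 regions stepped up at transcript ends. It was 19.02 per Mb in the last 500 bp of the gene (95% Poisson interval 16.3 to 22.0) and 25.2 per Mb in the first 500 bp past the end (22.2 to 28.6), over 20553 transcripts. The 8 bins inside the gene lay between 14.0 and 19.02 per Mb and the 8 past the end between 20.5 and 25.2. These point values did not overlap, but some intervals did. The bin from 3000 to 3500 bp past the end, for example, had an interval of 17.7 to 23.6. The step was not tested. Each library showed the step on its own, with 18.7 and 23.6 per Mb in library 1 and 18.8 and 25.7 in library 2. The pooled peaks outside the optimal set stood at 153 per Mb in the last bin of the gene and 142 in the first past it. Over the wider span they too were mostly denser past the end, from 126 to 152 per Mb against 108 to 128 in the other 7 bins inside the gene.

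**Figure D2:**
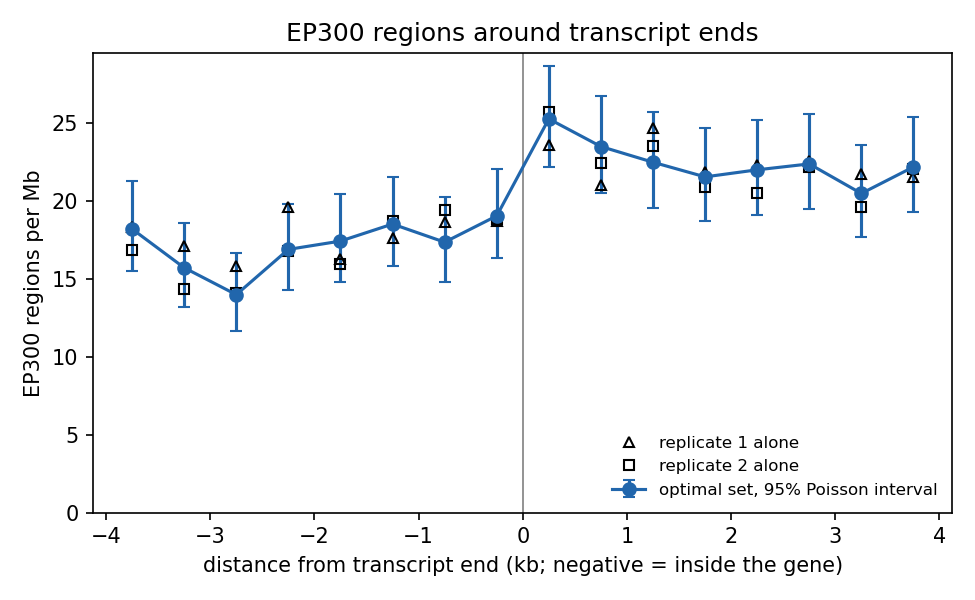
EP300 regions per Mb in 500 bp bins around transcript ends, with distance from the end in kb (negative inside the gene). Filled points are the optimal set with 95% Poisson intervals, open symbols each library alone. The 8 points of the optimal set past the end all lie above the 8 points inside the gene, while some of the intervals overlap.

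Coding regions were arranged differently, since most coding exons are shorter than a called region. The median exon holding a coding summit was 159 bp long, against 191 bp for coding bases in general. The median share of the called region inside annotated exon sequence, of the host exon or any other, was 41.6%. In 15.1% of cases the entire region was inside. The rest of the called region then lay outside annotated exons. The summit was within 50 bp of an exon edge in 62.1% of coding regions, and 52.9% of all coding bases were that close. Internal exons held 83.1% of the coding regions and 77.9% of coding bases. The nearest start was that of the host gene for 72.1% of the coding regions, with no value measured for coding bases in general.

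Coding exons also lay nearer to starts of transcripts other than protein-coding ones, such as retained introns, processed transcripts and antisense RNAs. Such a start was within 1 kb of 19.5% of the coding regions, 6.64% of the 3′ UTR regions and 6.79% of the intron regions. The difference between coding and intron regions passed the test (Fisher's exact test, adjusted p = 3.70e-11 over 11 pairs), but the sequence itself differed in the same way. Of all coding bases 15.2% lay that close to such a start, against 4.92% of intron bases, so that regions exceeded bases by 1.28 times in coding sequence and by 1.38 times in introns. With the starts of all transcripts of protein-coding genes counted, retained introns included, 820 exonic regions and 224 coding ones were over 1 kb away.

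The 5′ UTR regions were few and rested in large part on 1 gene. They stood at 29.6 per Mb (17.8 to 46.3) over only 0.641 Mb, and they fell in 14 genes. Tmbim1 held 5 of the 19 in a first exon of 9164 bp. Without these 5, but with the bases of Tmbim1 still counted, the density was 21.8 per Mb. Their share of optimal regions was 1.17 times that of the other pooled peaks (Fisher's exact test, adjusted p = 0.510), which did not pass the test.

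Tmbim1 had 6 exonic regions, the most of any gene. The strongest, chr1:74295508-74295931, had a pooled signal of 197, with 101 in library 1 and 95.4 in library 2. The other 5′ UTR regions had pooled signals of 85.4, 83.8, 71.5 and 32.9, and the coding region in exon 11 had 65.4. Of the 6, 5 were found in both libraries and the weakest was not. Lrrn1, a leucine-rich repeat membrane protein, had the next strongest 5′ UTR region at 104, with 58.4 and 46.8 in the libraries. Gm10277 followed among the other genes at 79.2, with 48.1 and 28.4, and its AP-1 site is printed above.

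The strongest exonic regions were in 3′ UTRs. Frmd8, which encodes a partner of the iRhom proteins that control shedding of membrane proteins, had the highest pooled signal of all, 353 at chr19:5850129-5850370, with 190 in library 1 and 162 in library 2. Wipf3 followed with 333, and with 190 and 140 in the libraries. E2f2, a cell cycle transcription factor, had 306, with 165 and 140. Clec1a, a C-type lectin-like receptor, had 302, with 168 and 134. Scnn1g, whose channel takes up sodium and with it fluid from the airspaces, had 291, with 156 and 134. Wipf3 and Scnn1g are the genes whose glucocorticoid response elements are printed above, and the Frmd8 region held a TEAD match. In all 5 the value was higher in library 1, as it was over the exonic regions in general.

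The highest coding signal was below the highest in 3′ UTRs, with 272 coding and 602 3′ UTR regions to draw from. Prkce, which encodes protein kinase C epsilon, had the strongest at chr17:86476812-86476978 in exon 5 of 15, with a pooled signal of 265 and with 153 and 110 in the libraries. Osbpl6, of the oxysterol-binding protein family, held the second and the fourth, 248 in exon 23 of 27 (144 and 106) and 199 in exon 6 (122 and 84.1). Acot11, an acyl-CoA thioesterase, had 216 in exon 14 of 16, with 119 and 90.6. Sh3d19, an SH3 domain adaptor, had 199 in exon 14 of 20, with 121 and 76.1. All 5 of these regions were narrower than the usual 424 bp and were found in both libraries and in the conservative set. None of the 5 had its own gene's start as the nearest one.

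As a whole the exonic regions were slightly weaker than other distal regions, and the difference from intergenic regions held in more settings than that from introns. The median pooled signal was 45.0 in exons (43.8 in coding sequence, 55.4 in 5′ UTRs, 45.7 in 3′ UTRs), 48.6 in introns and 50.2 between genes. The signal was above the median of the optimal set, 48.6, in 44.9% of exonic regions, where 50% of all optimal regions are by construction. The difference from introns was -5.04 points (95% interval -8.36 to -1.69, Fisher's exact test, adjusted p = 0.0130 over 11 pairs) and that from intergenic regions -7.21 points (Fisher's exact test, adjusted p = 0.000309). The optimal set held 5868 regions, 152 of them exonic, with a pooled signal under 29.3, the signal of the pooled peak whose rank equals the size of the set, and why the set holds them is not stated in the sources used here. Leaving them out ended both calls, at -2.49 points (Fisher's exact test, adjusted p = 0.489) and -4.94 points (Fisher's exact test, adjusted p = 0.104). This removes regions by the measure that is compared, so that part of the smaller difference is built in. The same holds for the stronger 50% of the optimal set, with 0.252 points from introns and -0.717 from intergenic regions. In each alternative set of regions the threshold was taken anew, as the median of that set. In library 1 alone and with overlapping peaks merged, the call against introns ended (-3.78 and -3.58 points) and that against intergenic regions did not (-5.57 and -5.85 points, Fisher's exact test, adjusted p = 0.0138 and 0.0137). With the upper quartile as the threshold both ended (-2.32 and -3.91 points).

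Coding and 3′ UTR regions did not differ in signal beyond error. They were above the median in 43.4% and 45.2% of cases, a difference of -1.80 points (95% interval -8.81 to 5.32, Fisher's exact test, adjusted p = 0.659). None of the 4 pairs with the 5′ UTR regions passed the test either, with intervals over 30 points wide. Split into 10 equal groups by signal, the optimal set held from 76 to 116 exonic regions a group, 83 in the strongest and 116 in the weakest, or 1.92% and 2.68%.

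**Figure D3:**
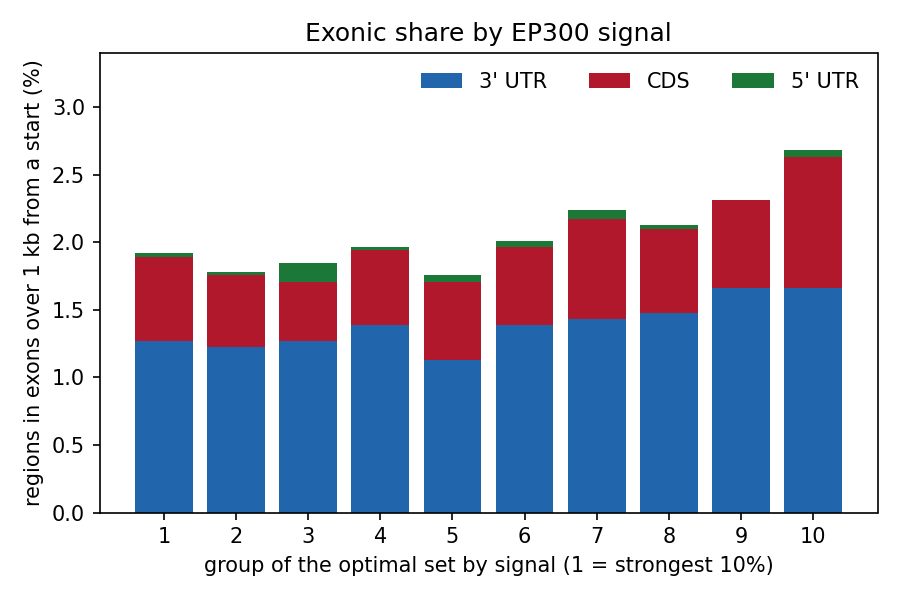
Percent of regions in exons over 1 kb from a start site, in 10 equal groups of the optimal set from the strongest (1) to the weakest (10), stacked by 3′ UTR, CDS and 5′ UTR. The weakest group stands highest, at 2.68%.

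The libraries shared most of the exonic regions. A region was counted as found in both when each library had a summit within 100 bp among as many of its strongest peaks as the optimal set holds. This was so for 535 of the 893 (59.9%), where 63% of all optimal regions met it. The difference from introns was -4.25 points (95% interval -7.57 to -1.01, Fisher's exact test, adjusted p = 0.0373) and that from intergenic regions -5.37 points (Fisher's exact test, adjusted p = 0.0133). Both calls ended without the low-signal regions, at -1.75 points (Fisher's exact test, adjusted p = 0.844) and -2.98 points (Fisher's exact test, adjusted p = 0.527). Requiring summits within 50 bp, or merging overlapping peaks, ended them too (-3.14 and -3.24 points from introns). Coding and 3′ UTR regions stood at 59.6% and 60.0% (difference -0.408 points, 95% interval -7.47 to 6.503, Fisher's exact test, adjusted p = 1). In the authors' conservative set were 77.6% of the exonic regions, where 80.1% of all optimal regions were.

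With a partner at any rank, the median signal of exonic regions was 28.0 in library 1 and 20.9 in library 2, a median log2 ratio of 0.43 for regions seen in both. In introns the log2 ratio was 0.40 and between genes 0.39, so the offset between the libraries was not particular to exons.

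**Figure D4:**
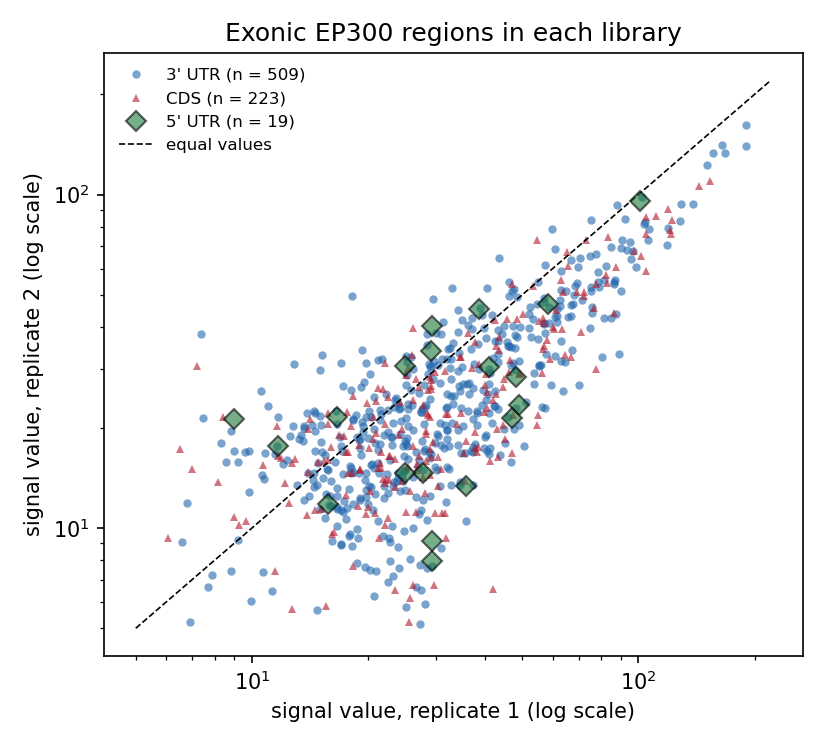
Signal value of each exonic region in library 1 (x axis, log scale) and library 2 (y axis, log scale), for regions with a peak within 100 bp in both, by class. The dashed line marks equal values, and most points lie below it, with a median log2 ratio of 0.43.

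The DNA at the summits was searched for 18 sequences on both strands in the central 100 bp, and the same length at 500 bp on either side served as flanks. Beside the 2 patterns given earlier, the list had TGACGTCA for the cyclic AMP factor CREB, CCGGAAG for the ETS family in general and ACAGGAAG for the endothelial member ERG. Forkhead (FOX) factors were represented by TGTTTAC, the Hippo pathway factors TEAD by ACATTCC, and the lung and heart homeobox family NKX2 by CCACTTGA. For the GATA family the search was for AGATAAG, for SOX proteins for CCATTGT, for STAT proteins for TTCCNGGAA and for CEBP proteins for TTGCNNAA. Nuclear factor I (NFI) was searched by its single site TTGGCA and by its palindrome, the KLF and SP families by GGGCGGG, E-box proteins by CAGCTG, the respiratory factor NRF1 by GCGCATGC, and CTCF by its core. The NFI palindrome can contain the single site, and no other pattern contains another. A match describes the letters and does not show that the factor was bound.

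No sequence passed the adjusted test between exonic and other distal regions, which does not show that their shares were equal. The ratio of exonic to other distal shares was 0.707 for AP-1 and 0.572 for GATA. By Fisher's exact test with adjustment over 36 tests, 0 of the 18 sequences (0%) differed between exonic and other distal regions, with 4 at an unadjusted p under 0.05, and 0 of the 18 (0%) differed between coding and 3′ UTR regions, with 0 unadjusted. The 4 were AP-1, in 5.82% of exonic and 8.23% of other distal regions (Fisher's exact test, adjusted p = 0.224), GATA, in 2.02% and 3.53%, the CAGCTG E-box, in 10.6% and 8.36%, and the single NFI site, in 11.6% and 9.56%. The E-box passed the adjusted test in library 1 alone, at a ratio of 1.38 (Fisher's exact test, adjusted p = 0.0413), and in no other setting tried. Base composition differed a little, with a median GC content of 48% in 200 bp around exonic summits (49.5% in coding sequence) and 46.5% in introns, and its part in these values was not tested.

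Several sequences were gathered at the centre of exonic regions relative to their flanks. The glucocorticoid response element was in 21 central windows (2.35%), 5 coding and 16 in 3′ UTRs, and in 0 of the 1786 flanking windows, which allows up to 0.168%. Set against that limit the centre share was 14.0-fold higher, a value that leaves out the counting error of the 21 matches. The other distal regions held the element in 2.40% of centres and 0.187% of flanks. STAT was 5.67-fold, the ERG form of ETS 5.08-fold, TEAD 4.17-fold and FOX 3.48-fold higher in the centre. These rest on 17, 33, 50 and 47 central matches and on 6, 13, 24 and 27 in the flanks. Other distal regions also held more in the centre, with STAT in 1.61% of centres and 0.241% of flanks. There the ERG form stood at 4.25% and 0.980%, TEAD at 5.81% and 1.38%, FOX at 5.66% and 1.45%, and AP-1 at 8.23% and 3.03%. AP-1, counted with any middle base, was 1.93-fold higher, with 52 central matches. The SOX and NKX2 patterns were 1.17-fold and 1.25-fold higher, with 14 and 5. In the 19 5′ UTR regions no glucocorticoid response element was found, which allows a share of up to 15.8%, and AP-1 was found in 3.

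**Figure D5:**
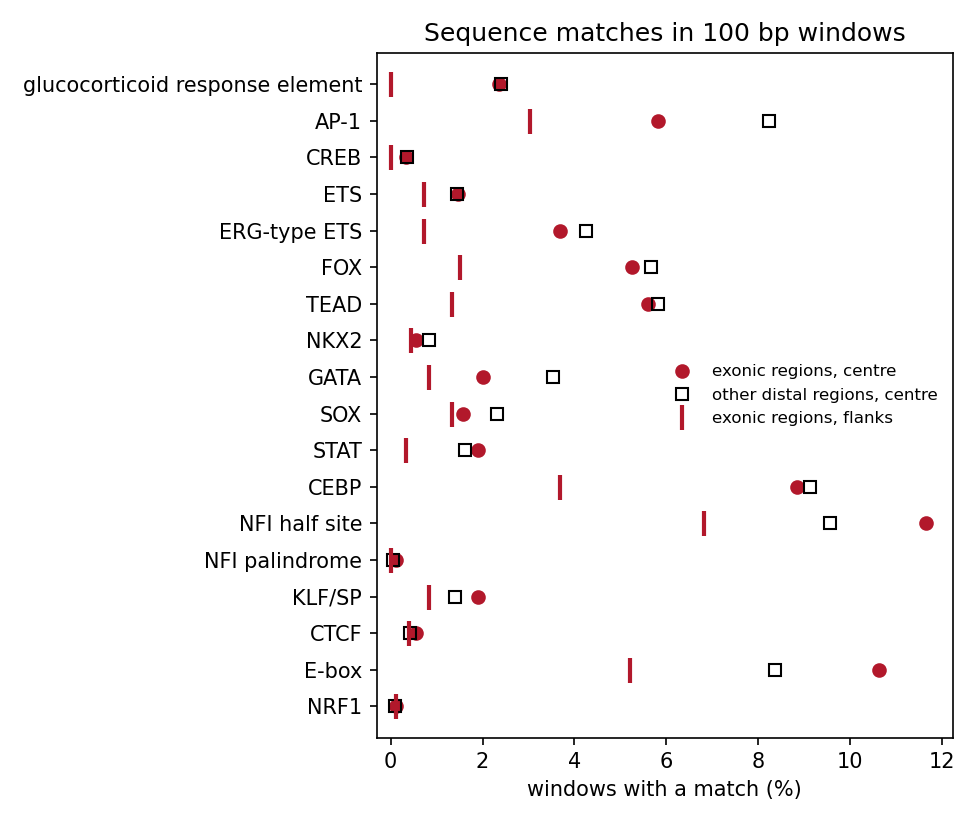
Percent of 100 bp windows with a match to each of 18 sequences, for the centres of exonic regions (filled circles), the centres of other distal regions (open squares) and the flanks of exonic regions (bars). The glucocorticoid response element lies at 2.35% and 2.40% in the centres and at 0 in the flanks.

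Exonic regions with the glucocorticoid response element were among the strong ones. Their median pooled signal was 108 (range 28.6 to 333), and 18 of the 21 were above the median of the optimal set, which 50% of all regions exceed. They were found in both libraries in 20 of 21 cases, where 63% of all regions were, and all 21 were in the conservative set. Among other distal regions with the element the median was 78.4, and 72.6% were above the median. Of these 882 regions, 725 (82.2%) were found in both libraries and 802 were in the conservative set. The coding matches had pooled signals of 130 in Rgs22 (65.6 and 60.9 in libraries 1 and 2), 121 in Ap2b1 (72.4 and 49.8) and 101 in Plcb4 (56.8 and 42.6). Each of these lay in an internal exon, and the printed bases are coding, except 1 base of the Rgs22 stretch. Dennd4b had 213 in its 3′ UTR (128 and 83.3) and a second region without the element in coding exon 13, at 72.4.

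Regions with an AP-1 site had a median signal of 59.3 in the 52 exonic cases and 53.1 in other distal ones. The median of the optimal set was exceeded by 56.0% of the other distal ones and by 32 of the 52 exonic ones (61.5%). Of the exonic ones Fry had the strongest, at 157 (83.2 and 74.7 in the libraries). It was followed among coding regions by Vcl at 108 (63.6 and 39.4) and Cmss1 at 108 (53.4 and 53.1). In 3′ UTRs the highest value was 141, for a region on chromosome 18 that is not described further. Of the others, Edaradd had 128, Lhpp had 100.04 and Ppp3r2, which encodes a calcineurin regulatory subunit, had 100.27. In 5′ UTRs, Asb6, an ankyrin repeat and SOCS box protein, had 37.2, with 29.1 in library 1 and 7.97 in library 2.

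The exonic regions were spread over many genes. They lay in 756 of 20780 protein-coding genes (3.64%), of which 641 held 1 region, 97 held 2 and 18 held more. Of the 115 genes with more than 1, 28 held them in more than 1 exon. An EP300 region at a start site was present in 38.8% of host genes and in 22.2% of all protein-coding genes, and an intron region was present in 60.4% and 24.6%. Among the 5118 genes with an intron region, 33.7% had one at a start site, nearer to the hosts' share. Long genes offer more sequence to all of these, and gene length was not tested.

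After Tmbim1, Tor3a, which encodes a torsin ATPase, held the most with 4, as 2 overlapping pairs. One pair was in coding exon 3, with pooled signals of 127 and 50.5, and the other in the 3′ UTR, with 68.9 and 20.1, and only the stronger region of each pair was found in both libraries. Zfp961, a zinc finger gene, held 3 in its last coding exon, at 78.9, 38.9 and 23.2, all with a TEAD match and in part overlapping. Clmp, a cell adhesion protein, held 3 in its 3′ UTR at 83.0, 37.1 and 15.1. Gfod1, with 117, 45.6 and 10.04, and Gramd2, with 107, 32.4 and 26.8, had the same arrangement. Nhlrc2 had 1 coding and 2 3′ UTR regions, from 34.4 to 63.1, and Tmem245 had 2 coding and 1 in the 3′ UTR, from 29.5 to 69.8. In each of these 7 genes other than Nhlrc2 the strongest region was found in both libraries.

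Host genes were then looked up in 16 lists of lung cell types and pathways. Of 215 matched symbols 28 hosted an exonic region, where 3.64% of all protein-coding genes did. The lists are short and were drawn up with earlier results of these data known, so their counts describe the lists and nothing beyond them. No list on alveolar type 1 cells (0 of 10 genes), airway cells (0 of 6), blood cells (0 of 6), neurons (0 of 9) or liver (0 of 10) had a host.

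Alveolar type 2 cells, which make surfactant, had 2 hosts of 10 genes. Sftpc, which encodes surfactant protein C, had a region over coding exon 4 of 6 with a pooled signal of 43.8 (29.0 and 16.3 in the libraries), and the nearest start was that of Bmp1. Slc34a2, their phosphate transporter, had one in the 3′ UTR at 30.3 (15.3 and 14.1), not found in both libraries. Endothelial markers had 2 hosts of 10, both with 3′ UTR regions of higher signal. Kdr, the receptor for vascular endothelial growth factor, had 156 (90.3 and 69.1) with an ETS match, and Ednrb, an endothelin receptor, had 138 (59.9 and 78.8) and 51.1 (26.2 and 30.05). Of the mesenchymal and smooth muscle markers 1 of 10 was a host: Myh11, the smooth muscle myosin heavy chain, at 82.0 in the 3′ UTR (48.0 and 34.7).

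Genes that respond to glucocorticoids had 5 hosts of 19. Angptl4, an inhibitor of lipoprotein lipase, had a 3′ UTR region of 119 (75.7 and 44.2) with a glucocorticoid response element. Cebpd, a transcription factor gene of a single exon, had a 3′ UTR region of 53.9 (19.2 and 34.2) that also held the element. Sgk1, Errfi1 and Dusp1 were the others, with signals from 16.5 to 50.7 and without the element. The element was thus present in 2 of the 6 regions of this list.

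Immediate early genes had 4 hosts of 23. Ier2 had a 3′ UTR region of 106 (80.6 and 32.5) only 1.11 kb from its start, and Nr4a1, an orphan nuclear receptor, one of 83.9 (47.9 and 38.0). Jun had 2 regions and Ier5l had 1, all under 43 and not found in both libraries. Ier2, Ier5l and Jun are genes of a single exon.

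Components of TGF-beta and BMP signalling had 5 hosts of 17. Ski and Skil encode SMAD corepressors. Ski had 2 regions in its 3′ UTR, at 48.2 (26.0 and 19.7) and 38.0 (20.7 and 19.8), and Skil had 1 in coding exon 2 at 45.7 (18.02 and 20.2) with a TEAD match. Tgfbr2, Tgfbr3 and Id3 had 3′ UTR regions from 28.6 to 43.9. All 7 regions of this list were below the median of the optimal set, 48.6.

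Among extracellular matrix genes Tnc, which encodes tenascin C, had a coding region of 30.4 not found in both libraries. Among Hippo and YAP genes Arhgef17 had a region of 29.6 in coding exon 1 and Ajuba, a LIM domain protein, one of 25.8 in its last exon. Neither was found in both libraries or in the conservative set. Of the cytoskeleton genes Vcl (108) and Plec, which encodes plectin (16.3), were hosts, 2 of 19.

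Zeb2, a zinc finger homeobox repressor, had 2 coding regions in neighbouring exons, 98.8 in exon 7 of 11 (47.1 and 53.8) and 87.4 in exon 8 (50.4 and 44.0), both found in both libraries. Zfp36l2, an RNA-binding zinc finger protein, had a 3′ UTR region of 35.1 (28.0 and 5.90) seen mainly in library 1, and these were the 2 hosts of 18 in their list. Of the chromatin genes 1 of 14 was a host: Hdac4, a histone deacetylase, with 201 in its 3′ UTR (120 and 79.4).

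Exonic regions mostly had company. The median number of other optimal regions within 10 kb was 1, and 29.3% had none, against 28.7% of intron regions and 32.7% of intergenic regions. None of the 11 pairs of classes differed in this by Fisher's exact test after adjustment (exonic against intron, adjusted p = 0.828), and 2 had an unadjusted p under 0.05. The exonic share of optimal regions ranged from 1.47% on chromosome 12 to 2.64% on chromosome 11, and every chromosome from 1 to 19 held at least 24.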

How the data were processed

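EP300 ChIP-seq of newborn lung was analysed from the deposited peak lists. According to the deposited notes, the authors mapped reads to mm10, made a peak list for either library and for their pool, and derived the conservative and optimal sets by the irreproducible discovery rate. Which aligner and caller they ran is not given in the sources used here. Each peak has a signal, the number deposited by the authors.

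Summits were placed in CDS, then 5′ UTR, then 3′ UTR, of GENCODE vM21 basic protein-coding transcripts (GRCm38), so that 10 summits in more than 1 class counted as the first. Sequences are from the RefSeq GRCm38.p6 genome. Chromosomes X and Y were left out. Each library was represented by as many of its strongest peaks as the optimal set. Shares were compared by two-sided Fisher's exact tests with Benjamini-Hochberg adjustment and a threshold of 0.05, and regions, which can overlap, are not replicates. Intervals are 95% Wilson, Newcombe for differences of shares and exact Poisson for densities, and a count of 0 allows up to 3. Genes were named as hosts of the 5 strongest regions of each class, the 8 with most regions, the 2 strongest hosts in each list, and the 3 strongest of each class with a glucocorticoid response element or AP-1 site, none on chromosome 18. The further hosts in the glucocorticoid, immediate early and TGF-beta lists were named after their values were seen. A host that this rule names in the matrix list is not reported here. The regions and lists were chosen with earlier results of these data known. Of 218 symbols 215 were matched, 2 through newer names. Code was tested on simulated data. Tests used scipy 1.17.1, tables pandas 2.3.3 and numpy 2.4.6, and figures matplotlib 3.10.9, under Python 3.11.15.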

Additional observations from a re-analysis of the deposited data

How the results depend on the processing

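The lower share of coding sequence held in every setting run: the conservative set, the stronger 50%, each library alone, start distances of 500 bp and 2 kb, another class order, a weaker comparison set, and 3 settings chosen after seeing the data (low-signal regions left out, overlapping peaks merged, without Tmbim1). In the stronger 50% the counts were 403 exonic, 119 CDS, 11 5′ UTR and 273 3′ UTR, with densities relative to introns of 0.399 for CDS, 0.854 for 3′ UTRs and 0.645 for exons. The signal differences from introns and intergenic regions were 0.252 and -0.717 points there (0.914 for 3′ UTRs against introns), -2.32 and -3.91 with the upper quartile, and -2.49 and -4.94 without low-signal regions. Except for the upper quartile, the signal threshold was the median of the set in use. From introns the signal difference was -3.58 with merged peaks and ranged from -4.70 to -3.78 with a library left out, where the call ended in library 1 alone. CDS minus 3′ UTR was 0.337 in the conservative set and 0.450 with merged peaks, and ranged from -2.86 to 0.307 with a library left out. The share found in both libraries differed from introns and intergenic regions by -3.14 and -4.17 points with summits within 50 bp, -1.75 and -2.98 without low-signal regions, and -3.24 and -4.66 with merged peaks. CDS minus 3′ UTR in that share was 2.34 within 50 bp, 0.219 within 200 bp, 1.30 without low-signal regions and 1.83 with merged peaks. For 5′ UTRs, 500 bp in place of 1 kb gave 50 regions, a share ratio of 1.615 (Fisher's exact test, adjusted p = 0.00375) and 2.26 times the intron density. At 1 kb the share ratio was 1.17, and it ranged from 0.957 to 1.29 with a library left out. Also at 1 kb, it was 0.859 with Tmbim1 removed from the optimal regions but not from the other pooled peaks. With 3′ UTRs placed first, their share near noncoding starts was 0.116 points above introns. Sequences called ranged from 0 to 1 with a library left out. The cause of these changes was not tested. Depth is unknown, and no paired analysis was possible because there was 1 group.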
